A study of Mus musculus with 7 samples.

Results

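A panel of 52 cell cycle genes was followed in sorted mouse neutrophils, out of 28719 gene symbols listed in any of the 7 deposited tables. The members were listed for their known roles, with no threshold on measured values, and were read as 13 genes of DNA replication, 34 genes of mitosis and 5 abundant genes with broader roles (Hmgb2, H2afz, Tubb5, Tuba1b and Stmn1). All 52 were listed in both bone marrow tables, in the 3 tables of run 2 and in the inflammation table, whereas the spleen table of run 1 listed 47 and the blood table of run 1 listed 29. The smallest total of a gene in the run 1 tables was 11 UMIs (unique molecular identifiers, each standing for 1 captured mRNA molecule). All 52 members were in the bone marrow table of run 1, so a member missing from the spleen or blood table of that run is taken to have had 10 UMIs or fewer and is called unlisted below, never 0.

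Cells came from male C57BL/6J mice and were sorted as live CD11b+ Ly6G+ cells. Healthy bone marrow, spleen and blood were each profiled once at 6 weeks of age (run 1) and once at 8 weeks (run 2), from pools of 3 mice per tissue and run. A further library from 8-week-old mice held 5 conditions that were told apart by antibody hashtags: healthy blood, blood and joint of mice with K/BxN serum transfer arthritis (150 µl of serum on days 0 and 2, harvest on day 7), and lavage cells of lung and peritoneum 3 h after 25 ng of IL-1β given into the nose or the peritoneum. Each tissue was therefore measured in 2 pooled samples and each hashtag condition in 1. In the healthy tables a cell was kept where S100a8 and S100a9, the subunits of the neutrophil protein calprotectin, made up at least 3% of its UMIs, which left 1206 and 3426 bone marrow cells, 1135 and 2010 spleen cells and 1306 and 3672 blood cells in runs 1 and 2. In the inflammation table a cell was kept where its deposited ImmGen reference class was a neutrophil class, which left 4852 cells.

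The cell cycle uses different machinery for copying DNA and for dividing. In S phase the Mcm2 to Mcm7 helicase opens DNA, Pcna clamps the polymerase to it, and Tyms, Tk1, Rrm1 and Rrm2 supply deoxynucleotides. In mitosis cyclin B with Cdk1, the Aurora and Polo kinases, the kinetochore proteins and the kinesins of the spindle line up the chromosomes, which the condensins compact, and Ube2c and Cdc20 act in the destruction of securin and cyclin B that lets the sister chromatids part. Neutrophils divide as precursors in bone marrow, leave the cycle as they mature, and circulate as non-dividing cells.

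Depth differed between tissues. The healthy libraries held 1360064 to 9104133 UMIs in kept cells, and the hashtag conditions 942688 to 10293966. The median UMIs of a kept cell were 2698.5 and 2133.5 (bone marrow, runs 1 and 2), 1355 and 775 (spleen) and 809.5 and 826 (blood). Levels are given as CPM, the usual count of a gene's UMIs per 10 to the power of 6 UMIs of the library's kept cells. Counts of UMIs at transcript ends were not divided by gene length. Pairs of libraries shared at most 36 cell barcodes, 0.942% of the smaller library, and no cell was removed for it. S100a8 and S100a9, which chose the cells, took 17.9% to 36.0% of the UMIs of the healthy libraries. Tissue and run are the units of comparison, since cells of 1 library share their source. In summed counts, fewer cells with a transcript and less of it per cell cannot be told apart, so cells are taken up separately further down.

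Both parts of the panel were highest in bone marrow and lowest in blood in each run. The 13 replication genes summed to 361 and 266 CPM in bone marrow (mean 314 ± 66.7, SD, n = 2), to 106 and 114 CPM in spleen and to 29.4 and 29.01 CPM in blood. The 34 mitosis genes summed to 1087 and 1248 CPM in bone marrow (mean 1168 ± 114, SD, n = 2), 366 and 537 CPM in spleen and 237 and 171 CPM in blood. Without Kif23, Cenpa and Smc4, left out after the data were seen, the mitosis sum was 916 and 1058 CPM in bone marrow, 273 and 366 CPM in spleen and 102 and 55.4 CPM in blood, so these 3 genes made up most of the blood sum. The libraries of the 3 tissues did not overlap in either sum. With limits on genes per cell and mitochondrial share they did: bone marrow of run 1 then had 384 CPM of mitosis genes and spleen of run 2 had 543 CPM, and the exact permutation p was 0.133 for replication and 0.267 for mitosis. Without these limits the exact permutation test of the spread between tissues, which has no direction and takes no account of the run, gave p = 0.0667 for each sum, which is the smallest value that the 90 arrangements of 6 libraries allow. In blood of run 1 the printed sums hold only the 9 replication and 15 mitosis genes listed there. With each unlisted gene set at its limit of 10 UMIs that library would reach 58.8 CPM of replication genes and 376 CPM of mitosis genes, and the spleen library of that run 384 CPM of mitosis genes. The 5 abundant genes summed to 1946 and 3775 CPM in bone marrow, 1420 and 2661 CPM in spleen and 1340 and 2065 CPM in blood, so that the tissues overlapped across runs (exact permutation p = 0.533), while bone marrow exceeded spleen and spleen exceeded blood within each run. The ordering by tissue was also seen gene by gene: bone marrow exceeded spleen and spleen exceeded blood for 22 of the 29 members listed throughout run 1 and for 50 of 52 in run 2.

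**Figure D1:**
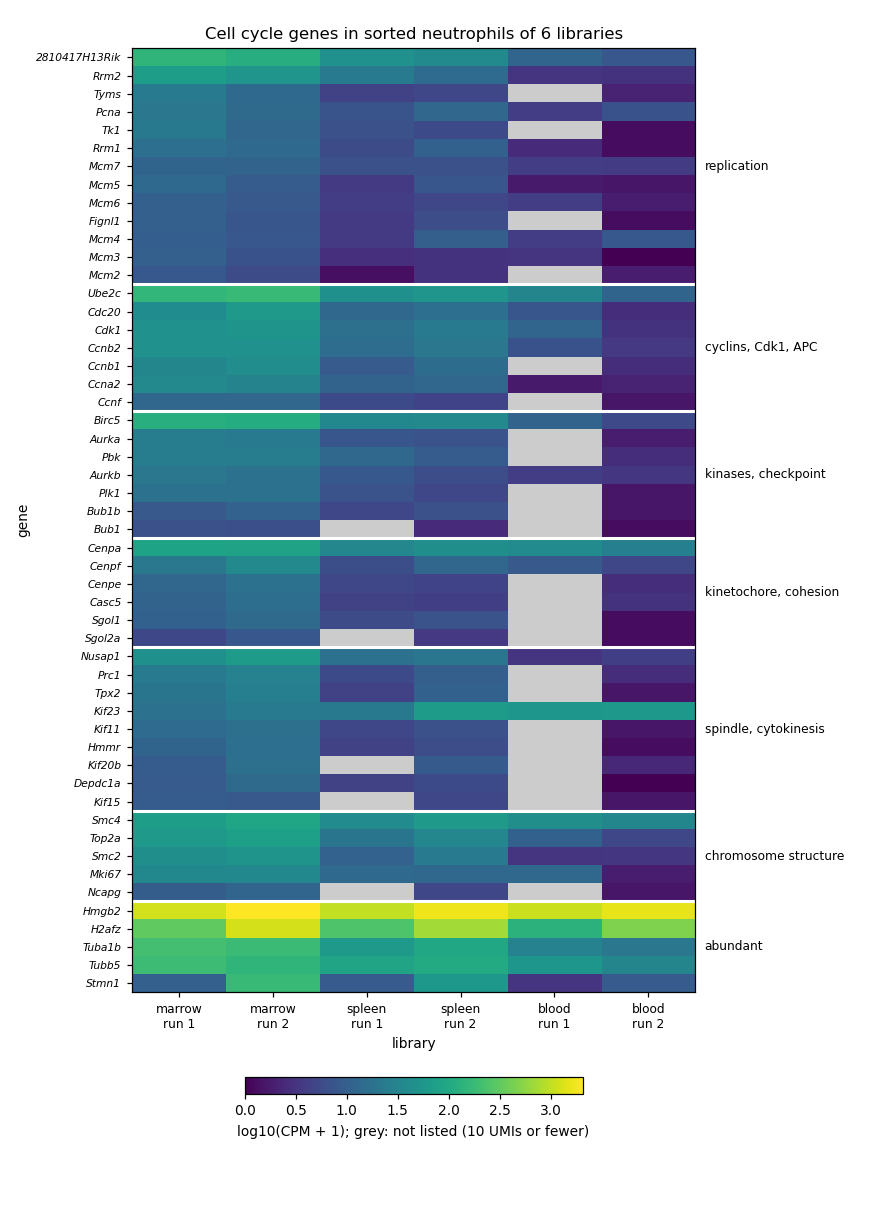
Level of each of the 52 members in the 6 healthy libraries as log10(CPM + 1), with members grouped by role and ordered within a group by their mean bone marrow level; grey marks genes unlisted in a run 1 table, with 10 UMIs or fewer. Most rows darken from bone marrow to blood, whereas Kif23 goes the other way and Hmgb2 lies at 1017 to 2048 CPM in every library.

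For the comparison between tissues, counts were summed per library and fitted across all genes with edgeR's quasi-likelihood test, with the run as a block and Benjamini-Hochberg adjustment. Only genes listed in all 6 tables entered this fit, which left 29 of the 52 members: 9 replication, 15 mitosis and all 5 abundant genes. Of these, 26 were higher in bone marrow than in blood and 1 was higher in blood, against a background of 15.2% of 6588 genes higher in bone marrow and 15.8% higher in blood. Without the run as a block 19 were higher in bone marrow and 0 in blood, and over all deposited cells 0 were called. The median difference of the 29 was 3.43 on the log2 scale, while that of all genes tested was close to 0. The test called 8 of 9 replication genes, 5 of 5 cyclin and Cdk1 genes, 2 of 2 kinase and checkpoint genes, 2 of 2 kinetochore genes, 4 of 4 chromosome structure genes and 4 of 5 abundant genes higher in bone marrow. Of the 2 spindle genes tested, Nusap1 was higher in bone marrow and Kif23 in blood. Mcm4 and Hmgb2 did not pass the test.

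Among the replication genes, 2810417H13Rik (Pclaf, a partner of Pcna at the replication fork) stood at 147 and 114 CPM in bone marrow, 46.1 and 36.3 CPM in spleen and 11.0 and 6.89 CPM in blood. All bone marrow values lay above all spleen values and these above all blood values, and the log2 difference between bone marrow and blood was 4.21 (SE 0.28, adjusted p = 0.000203). Rrm2, the subunit that limits ribonucleotide reductase, had 69.5 and 52.4 CPM in bone marrow, 21.6 and 13.3 CPM in spleen and 2.21 and 2.01 CPM in blood, again without overlap. Its difference between bone marrow and blood was 5.06 on the log2 scale (SE 0.38, adjusted p = 0.000203), and that of Rrm1, the large subunit, 4.66 (SE 0.58, adjusted p = 0.000944). Tyms, which makes thymidylate, had 22.1 and 12.7 CPM in bone marrow, 3.35 and 4.09 CPM in spleen and 1.15 CPM in blood of run 2, and was unlisted in blood of run 1. Pcna had 19.3 and 13.1 CPM in bone marrow, 6.33 and 11.2 CPM in spleen and 2.94 and 5.75 CPM in blood (log2 difference of bone marrow and blood 2.02, SE 0.40, adjusted p = 0.00636). Mcm4 was the exception of its list, with 8.71 and 7.03 CPM in bone marrow, 2.60 and 9.20 CPM in spleen and 2.94 and 7.18 CPM in blood. Its values overlapped between the tissues, and the log2 difference of 0.83 (SE 0.47) did not pass (adjusted p = 0.207).

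Among the genes that drive and end mitosis, Ube2c, the ubiquitin-conjugating enzyme of the anaphase-promoting complex, had 154 and 168 CPM in bone marrow, 44.3 and 52.1 CPM in spleen and 31.6 and 10.6 CPM in blood. The tissues did not overlap, and bone marrow exceeded blood by 3.43 on the log2 scale (SE 0.38, adjusted p = 0.000538). Cdk1, the kinase that starts mitosis, had 46.2 and 51.1 CPM in bone marrow, 15.6 and 21.5 CPM in spleen and 11.0 and 2.01 CPM in blood. Its log2 difference between bone marrow and blood was 3.57 (SE 0.50, adjusted p = 0.00139). Cdc20, which activates the same complex, had 39.3 and 60.4 CPM in bone marrow, 12.3 and 15.3 CPM in spleen and 6.62 and 1.72 CPM in blood. Ccna2, the cyclin of S phase and early mitosis, had the largest log2 difference between bone marrow and blood of the 29 tested members, 5.18 (SE 0.40, adjusted p = 0.000203), with 35.1 and 29.7 CPM in bone marrow and 0.735 and 1.15 CPM in blood.

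Birc5 (survivin, which guides Aurora B to chromosomes) led the kinase and checkpoint genes with 119 and 111 CPM in bone marrow, 33.9 and 35.3 CPM in spleen and 10.3 and 4.31 CPM in blood. Bone marrow exceeded blood by 4.45 on the log2 scale (SE 0.33, adjusted p = 0.000203). Aurka, the kinase of the spindle poles, had 23.8 and 23.1 CPM in bone marrow and Pbk, a mitotic protein kinase, 23.3 and 23.5 CPM, and both were unlisted in blood of run 1. In blood of run 2 they stood at 0.862 and 1.72 CPM. At the kinetochore, Cenpf had 20.01 and 35.1 CPM in bone marrow, 5.21 and 11.2 CPM in spleen and 7.35 and 4.02 CPM in blood, and Cenpe, its motor protein, 11.5 and 16.3 CPM in bone marrow, 4.09 and 3.58 CPM in spleen and 1.72 CPM in blood of run 2. Cenpa, the histone H3 variant that marks centromeres, fell less: 82.4 and 81.1 CPM in bone marrow, 33.5 and 43.4 CPM in spleen and 39.0 and 25.9 CPM in blood. Its spleen and blood values overlapped, and its log2 difference between bone marrow and blood was 1.69 (SE 0.25, adjusted p = 0.00182).

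Of the chromosome structure genes, Top2a, which untangles sister chromatids, had 61.7 and 74.0 CPM in bone marrow, 18.6 and 33.2 CPM in spleen and 9.56 and 4.02 CPM in blood. Smc2, the condensin core subunit, had 43.8 and 50.5 CPM in bone marrow, 10.0 and 22.5 CPM in spleen and 2.21 and 2.30 CPM in blood, a log2 difference of 4.73 between bone marrow and blood (SE 0.35, adjusted p = 0.000203). Its partner Smc4 differed less, by 1.44 (SE 0.25, adjusted p = 0.00377), with 71.6 and 88.0 CPM in bone marrow, 38.7 and 60.3 CPM in spleen and 41.9 and 32.2 CPM in blood. Nusap1, which bundles spindle microtubules, had 44.3 and 66.8 CPM in bone marrow, 16.7 and 18.9 CPM in spleen and 2.21 and 3.16 CPM in blood. Prc1 and Tpx2, further spindle organisers, had 21.7 and 28.6 CPM and 18.1 and 25.9 CPM in bone marrow and 1.72 and 0.575 CPM in blood of run 2.

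Kif23 encodes a kinesin of the centralspindlin complex, which is needed for the last cut between daughter cells. It had 17.0 and 21.6 CPM in bone marrow, 20.8 and 67.0 CPM in spleen and 53.7 and 57.5 CPM in blood. Both blood values lay above both bone marrow values, by 1.22 on the log2 scale (SE 0.30, adjusted p = 0.0148), and spleen of run 2 lay above blood. Of the 15 mitosis genes tested, the other 14 were called higher in bone marrow. The call did not hold without bone marrow of run 2 (adjusted p = 0.0731), without blood of run 1 (0.181), without the block (0.143) or over all deposited cells (0.246), all by edgeR.

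**Figure D2:**
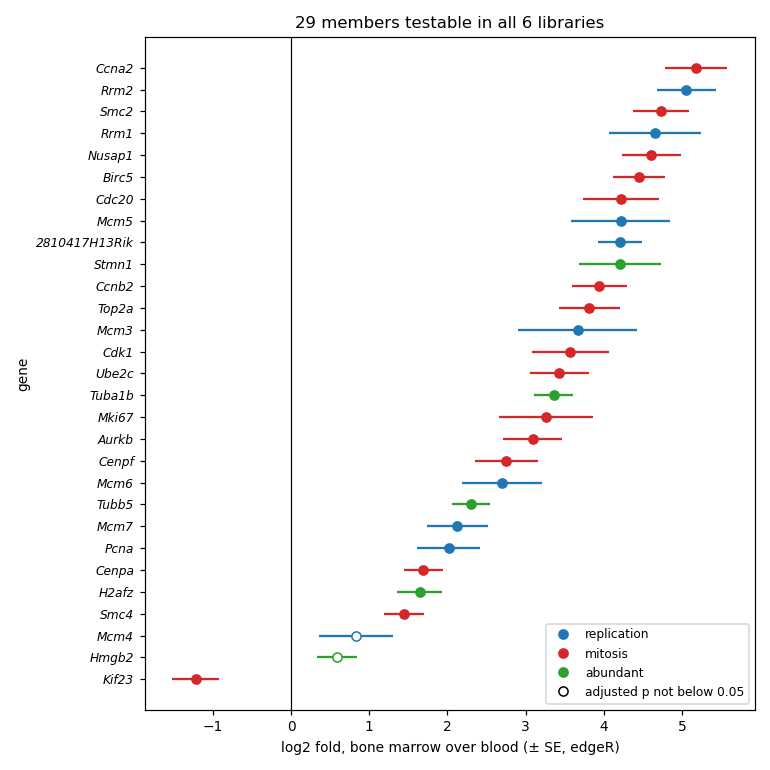
Log2 fold of bone marrow over blood with its standard error for the 29 members that could be tested in all 6 libraries (edgeR, run as a block), coloured by role; open points did not pass at an adjusted p of 0.05. 26 filled points lie to the right of 0 and Kif23, at -1.22, to the left.

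The 5 abundant genes behaved less alike. Tuba1b, an alpha-tubulin, had 212 and 180 CPM in bone marrow, 61.4 and 93.0 CPM in spleen and 28.7 and 19.8 CPM in blood (log2 difference of bone marrow and blood 3.36, SE 0.25, adjusted p = 0.000203), and Tubb5, a beta-tubulin, 187 and 144 CPM, 83.7 and 106 CPM, and 54.4 and 31.6 CPM (2.30, SE 0.24, adjusted p = 0.00045). Both are close in sequence to other tubulin genes, which the counting may have split. H2afz, a histone H2A variant, had 318 and 1234 CPM in bone marrow, 251 and 708 CPM in spleen and 132 and 468 CPM in blood. Run 2 exceeded run 1 by 3.89-fold in bone marrow, more than bone marrow exceeded blood within a run, and the log2 difference between bone marrow and blood, taken within runs, was 1.65 (SE 0.29, adjusted p = 0.00376). Stmn1, which destabilises microtubules, had 9.42 and 169 CPM in bone marrow, 7.81 and 57.8 CPM in spleen and 2.21 and 8.04 CPM in blood, a 17.98-fold difference between the 2 bone marrow runs where the median over the 52 members was 1.01. Hmgb2, a chromatin protein used in many cell types, had 1220 and 2048 CPM in bone marrow, 1017 and 1697 CPM in spleen and 1122 and 1537 CPM in blood, and its log2 difference of 0.59 (SE 0.26) did not pass (adjusted p = 0.114). What set the runs apart for H2afz and Stmn1 was not tested.

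Bone marrow and spleen differed less. In the same fit 15 of the 29 members were higher in bone marrow and 0 were higher in spleen, against backgrounds of 0.896% and 3.96% of all genes tested. Only 2 of the 9 replication genes passed (2810417H13Rik at 1.83 and Rrm2 at 1.97 on the log2 scale), compared with 11 of the 15 mitosis genes, among them Cdc20 (2.04), Cenpf (1.98), Ube2c (1.95) and Birc5 (1.92). Whether the 2 shares differ was not tested, and the replication genes rested on fewer UMIs. At an unadjusted p under 0.05, 27 of the 29 members differed (1420 of all 6588 genes), and DESeq2 called 15 (308 of all genes). The count depended on single libraries: without spleen of run 2 it was 3. It was 0 without the run as a block and 0 over all deposited cells. With the limits on genes and mitochondrial share 0 members were called higher in bone marrow and 1, Kif23, was called higher in spleen (log2 difference -1.345, edgeR adjusted p = 0.0457).

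Spleen exceeded blood in 7 of the 29 members (2810417H13Rik, Rrm2, Birc5, Ccna2, Nusap1, Smc2 and Tuba1b) and blood exceeded spleen in 0, against backgrounds of 0.137% and 0.0304%. The largest of the 7 log2 differences was 3.43 for Ccna2 (SE 0.47, adjusted p = 0.0282) and the smallest 1.82 for Tuba1b (SE 0.25, adjusted p = 0.0282). The count fell to 0 without blood of run 1, without blood of run 2, without the block, with the limits on genes and mitochondrial share and over all deposited cells. It was 17 without bone marrow of run 1 and also without bone marrow of run 2, and 11 without spleen of run 1. At an unadjusted p under 0.05, 20 of the 29 differed (880 of all 6588 genes).

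The 23 members unlisted in blood of run 1 were read without that library. In a fit of the other 5 libraries, chosen after the data were seen, 34 of the 47 members tested were higher in bone marrow than in blood, against 1.35% of 7127 genes, and 0 were higher in blood (1.39%). Tpx2 differed by 5.77 on the log2 scale (SE 0.61, adjusted p = 0.0217), Aurka by 4.88 (SE 0.58, adjusted p = 0.0276) and Prc1 by 4.32 (SE 0.48, adjusted p = 0.0228). Depdc1a had 34 UMIs in bone marrow of run 1, 119 in that of run 2 and 0 in blood of run 2. Mcm2, Fignl1, Cenpe and Casc5 (Knl1) pointed the same way without passing, at adjusted p values of 0.142, 0.0635, 0.0558 and 0.0643. Bub1, Sgol2a, Kif15, Kif20b and Ncapg were also unlisted in spleen of run 1, and had 4.24 to 8.48 CPM in bone marrow of run 1, 5.38 to 15.7 CPM in bone marrow of run 2 and 0.287 to 1.44 CPM in blood of run 2. With each unlisted gene set at 0 or at 10 UMIs all 52 members could be fitted, and 45 or 40 were called higher in bone marrow than in blood (background 11.1% or 10.1%), with Kif23 the 1 called higher in blood in both (background 12.7% or 11.7%).

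To ask which members stayed on in cells without mitosis transcripts, kept cells were ordered by how many of the 34 mitosis genes had a UMI. In bone marrow of run 2, 2607 cells had none, 555 had 1, 59 had 2, 5 had 3 to 5, 10 had 6 to 10 and 190 had more than 10. In bone marrow of run 1 the numbers were 888, 195, 32, 13, 7 and 71. The cells with at least 3 mitosis genes were deeper, with median UMIs of 9356 and 7670 in bone marrow against 2414 and 1993 in cells with none. After each cell was thinned to 500 UMIs, 2.99% and 3.15% of bone marrow cells still had at least 3 mitosis genes (exact 95% intervals 2.099% to 4.11% and 2.59% to 3.79%), compared with 0.529% and 0.498% in spleen and 0.391% and 0.0545% in blood. Without Kif23, Cenpa and Smc4 the bone marrow shares were 2.32% and 2.69%, the spleen shares 0.352% and 0.448%, and blood had 1 of 1280 (0.0781%) and 0 of 3672 cells. With all 34 genes and thinning to 1000 UMIs, the bone marrow shares were 5.47% and 5.14%, the spleen shares 2.37% and 3.60% with 377 and 1593 cells left out, and the blood shares 1.41% and 0.301% with 879 and 2675 left out. At 500 UMIs thinning left out 26 blood cells of run 1, and 14 and 49 bone marrow cells lay at exactly 3 genes. Without thinning the shares were 7.55% and 5.98%, 2.20% and 0.896%, and 0.536% and 0.0817%. The thinned shares of the tissues did not overlap, and the exact permutation p was 0.0667, again the smallest possible. With the limits on genes and mitochondrial share the exact permutation p was 0.133. With only the mitosis genes listed in all 6 tables it was 0.2, and blood of run 1 (0.391%) lay above both spleen libraries (0.264% and 0.348%). In the inflammation library, 0 of 4852 neutrophils had at least 3 of the 31 mitosis genes other than Kif23, Cenpa and Smc4, which allows a share of up to 0.0618% (3 counts of the total) over the conditions together and of up to 0.589%, 0.369%, 0.105%, 0.789% and 1.03% in healthy blood, arthritis blood, joint, lung and peritoneum. With all 34 genes counted and no thinning, 5 cells of healthy blood, 6 of arthritis blood, 3 of joint, 0 of lung and 1 of peritoneum did. These intervals and limits cover counting error only.

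Cells with at least 3 of those 31 genes held more preneutrophil transcripts than the rest. In bone marrow the 10 preneutrophil markers, led by Chil3, Elane, Cebpe and Serpinb1a, summed to 14582 and 14755 CPM in the 85 and 201 such cells and to 3597 and 2533 CPM in the rest. The secondary granule genes Camp, Ngp, Ltf and Lcn2 summed to 153170 and 150050 CPM against 90363 and 57809 CPM. The 10 neutrophil markers, led by S100a8 and S100a9 that chose the cells, summed to 329950 and 328890 CPM against 412840 and 417760 CPM. The next 3 lists were incomplete in run 1, whose bone marrow table held 7 of 9 B-lineage, 2 of 9 T and NK cell and 6 of 10 progenitor and mast cell genes, so the runs are not compared for them. The B-lineage markers summed to 7.15 and 167 CPM against 4.11 and 189 CPM, and the progenitor and mast cell list to 34.6 and 18.4 CPM against 11.7 and 96.5 CPM. The T and NK cell list, led by Nkg7 in these cells, summed to 158 and 74.1 CPM against 46.1 and 34.7 CPM. Erythroid genes summed to 325 and 124 CPM against 1060.0 and 346 CPM. The monocyte, macrophage and dendritic cell list, led by Ly6c2, summed to 1408 and 913 CPM against 1373 and 1033 CPM. The part of these markers in the results was not tested. Spleen held 22 and 18 such cells, and blood held 7 and 3.

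In bone marrow, replication transcripts lay mostly in the cells with many mitosis genes. In bone marrow of run 1 the 13 replication genes summed to 22.9, 23.8 and 53.2 CPM in cells with 0, 1 and 2 mitosis genes, to 109 CPM at 3 to 5, to 590 CPM at 6 to 10 and to 1884 CPM at more than 10. In bone marrow of run 2 they summed to 23.2 CPM in cells with none, reached 3273 CPM in the 10 cells with 6 to 10 mitosis genes and 1284 CPM in the 190 cells with more. In blood the level also rose, from 15.2 and 17.7 CPM in cells with none to 570 and 1516 CPM in cells with more than 10. Such cells were few there, however. The 4 and 3 blood cells with more than 10 held 15 and 35 replication UMIs, and blood cells with none held 18 and 54. As a mean of the bone marrow runs, the level in cells with none was 1.54% of the level in cells with at least 3. For the 5 abundant genes the same figure was 17.6%. Their sum was 1013 and 2001 CPM in cells with none and 5963 and 12060 CPM in cells with more than 10. Depth differed between these cells too, and its part was not tested.

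**Figure D3:**
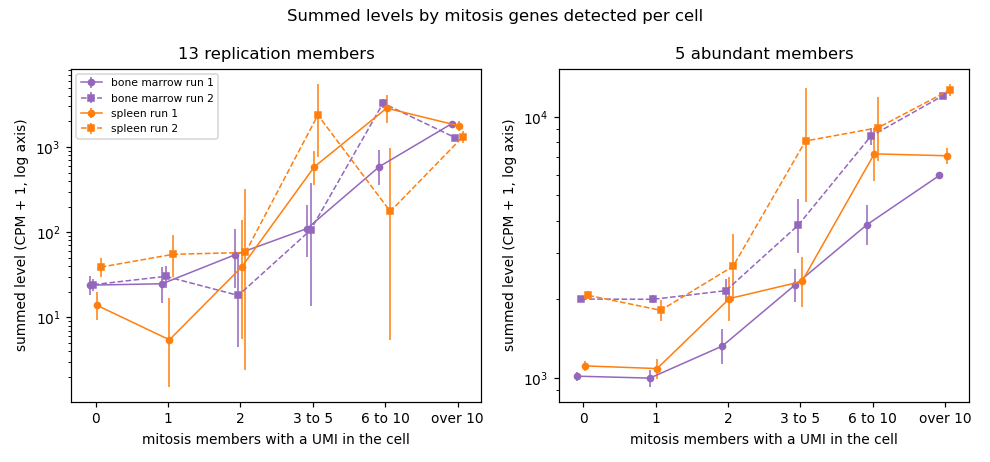
Summed level (CPM + 1, log axis) of the 13 replication genes and the 5 abundant genes in cells grouped by the number of mitosis genes with a UMI, for bone marrow and spleen in both runs; bars are 95% Poisson intervals for counting error. In bone marrow of run 1 the replication genes go from 22.9 to 1884 CPM, and the abundant genes from 1013 to 5963 CPM.

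Gene by gene, the level in bone marrow cells without another mitosis gene was set against the level in cells with at least 3, as a mean of the runs. The median over the 52 members was 1.08%, with 2.27% for the replication genes and 0.779% for the mitosis genes, and 49 of the 52 stayed under 10%. Hmgb2 was highest at 26.5% ± 3.37 (SD, n = 2), followed by H2afz at 18.7% ± 2.52 and Mcm4 at 10.7% ± 4.74. Next came Kif23 (7.73%), Smc4 (7.62%), Mcm6 (5.98%), Mcm5 (5.72%), Mcm2 (5.20%), Cenpa (4.35%) and Pcna (4.11%). At the other end Depdc1a, which associates with the mitotic spindle, and the checkpoint kinase gene Bub1 had 0 UMIs in bone marrow cells without another mitosis gene. Kif11 and Kif15, motors that keep the spindle poles apart, stood at 0.204% and 0.210% and Top2a at 0.300%. In spleen, which held fewer cells with at least 3 mitosis genes, the order differed. There Kif23 stood at 24.0% and 64.2% in runs 1 and 2, Hmgb2 at 27.2% and 24.9% and H2afz at 25.7% and 13.3%. Mcm4 stood at 16.0% and 27.1%, with only 2 and 3 UMIs in the cells with at least 3.

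Replication members filled 5 of the 10 highest places in bone marrow, but their absolute levels were low. In cells without a mitosis gene Mcm4 had 2.37 and 3.25 CPM in bone marrow and Pcna 3.56 and 2.22 CPM, against 814 and 1311 CPM for Hmgb2. Their UMIs lay in 0.676% and 0.690% of these cells for Mcm4 and in 1.01% and 0.499% for Pcna, against 82.7% and 90.6% for Hmgb2. Free RNA was not measured for these genes, and erythroid genes, which neutrophils lack, had UMIs in 9.52% to 99.97% of the healthy cells with fewer than 3 of the 31 genes. Whether UMIs of Mcm4 and Pcna at this level came from the cells themselves was not tested, nor was it for other members at a few CPM. Without Mcm4 and Pcna the replication UMIs of such cells went from 58 and 136 to 43 and 104 in bone marrow. In blood they went from 18 and 54 to 12 and 17. Of the 18 replication and abundant genes, 7 could be tested between tissues in such cells (bone marrow 888 and 2607, spleen 929 and 1749, blood 1167 and 3280). Stmn1 and H2afz were called higher in bone marrow than in blood, at 3.06 (SE 0.60, adjusted p = 0.0116) and 0.99 (SE 0.29, adjusted p = 0.0364) on the log2 scale by edgeR, against a background of 10.6% of 6264 genes. For Stmn1 the call rested on run 2, where it had 14.5 CPM in bone marrow, 4.43 CPM in spleen and 2.30 CPM in blood, with 0 UMIs in all 3 tissues of run 1. Without bone marrow of run 2, blood of run 1 or blood of run 2, and also without the block, neither gene was called. Hmgb2 differed by 0.16 (SE 0.24, adjusted p = 0.683), Tuba1b by 0.22 (SE 0.41), Tubb5 by -0.33 (SE 0.37), Pcna by -0.30 (SE 0.53) and Mcm4 by -0.27 (SE 0.52), none past the threshold. In the spleen contrasts 0 of the 7 passed (backgrounds 0.112% higher and 2.67% lower in bone marrow than in spleen, 0% higher and 0.0319% lower in spleen than in blood).

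Kif23, Cenpa and Smc4 were the 3 mitosis genes with the highest levels in blood in both runs. In cells without any other mitosis gene Kif23 had 5.44 and 5.73 CPM in bone marrow, 17.8 and 66.1 CPM in spleen and 49.3 and 56.9 CPM in blood. Blood exceeded bone marrow by 9.05-fold in run 1 and 9.93-fold in run 2, and the counting intervals of bone marrow (2.98 to 9.13 and 3.97 to 8.00 CPM) did not meet those of blood (37.7 to 63.3 and 48.9 to 65.7 CPM). Within bone marrow Kif23 was highest beside other mitosis genes, with 57.7 and 95.01 CPM in cells with at least 3 other mitosis genes. Cenpa had 12.5 and 18.8 CPM in bone marrow cells without another mitosis gene and 21.5 and 21.5 CPM in such blood cells, and Smc4 21.9 and 26.0 CPM and 32.8 and 28.0 CPM. These 3 genes were singled out after their values were seen, so the figures are a description.

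The secondary granule genes mark immature neutrophils, and Kif23 was split along them in spleen and blood. Cells without a UMI of the 31 other mitosis genes were grouped by the share of their UMIs in Camp, Ngp, Ltf and Lcn2. Where that share was under 1%, Kif23 had 58.4 and 70.4 CPM in spleen and 65.3 and 59.4 CPM in blood, but 8.37 and 4.63 CPM in bone marrow. Where it was at least 5%, Kif23 had 3.80 and 7.90 CPM in spleen, 7.74 and 14.1 CPM in blood and 3.21 and 4.83 CPM in bone marrow. The cells with few granule transcripts were the shallower ones, with median UMIs of 765 to 927.5 in spleen and blood and of 1627 and 1416.5 in bone marrow. Cells outside the neutrophil rule, with S100a8 and S100a9 under 1% of UMIs, had 18.2 and 6.34 CPM of Kif23 in blood and 26.1 and 6.65 CPM in spleen, where run 1 rested on 3 UMIs, and 47.7 and 39.6 CPM in bone marrow. Kif23 lies on chromosome 9 (chr9:61917277-61946810, GRCm38, minus strand) and overlaps no other annotated gene, unlike 24 of the 52 members.

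**Figure D4:**
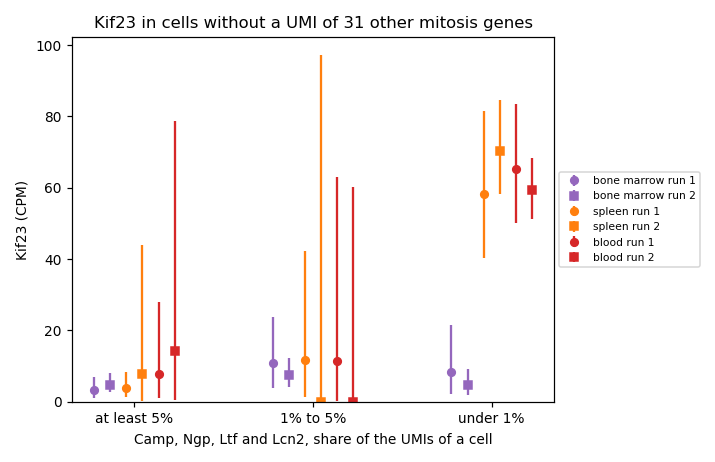
Level of Kif23 (CPM, linear axis) in cells without a UMI of 31 other mitosis genes, grouped by the share of their UMIs in Camp, Ngp, Ltf and Lcn2, for the 6 healthy libraries; bars are 95% Poisson intervals for counting error. In cells under 1%, spleen and blood sit between 58.4 and 70.4 CPM and bone marrow at 8.37 and 4.63 CPM.

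In the hashtag library each condition was a single pooled sample, so no test between conditions exists, and a member was counted as different where its level differed at least 2-fold from healthy blood of the same library and the Poisson intervals did not overlap. All conditions are read against the same healthy blood sample. Of the 52 members, 37 had 0 UMIs in healthy blood, 29 in arthritis blood, 14 in the arthritic joint, 35 in IL-1β lung and 35 in IL-1β peritoneum, where the joint sample was the deepest with 10293966 UMIs. Arthritis blood differed in 1 of 10 members with enough UMIs, Tubb5, which was 2.04-fold lower (background 6.13% of genes lower, 0.447% higher). In the arthritic joint 1 of 14 was higher and 4 were lower (background 6.68% higher and 18.8% lower). In IL-1β lung 2 of 11 were higher and 4 lower (8.97% and 39.7%), and in IL-1β peritoneum 1 of 9 was higher and 5 were lower (8.32% and 38.9%).

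Kif23 stood at 140 CPM in healthy blood (interval 119 to 164) and 111 CPM in arthritis blood, at 34.1 CPM in the joint (4.12-fold lower than healthy blood), at 9.08 CPM in lung (15.5-fold lower) and at 11.7 CPM in peritoneum (12.0-fold lower). In cells without another mitosis gene it had 146, 109, 34.8, 10.6 and 10.1 CPM in the same order of samples. The intervals of lung and peritoneum overlapped, as did those of healthy and arthritis blood in all kept cells. Cenpa had 46.2 CPM in healthy blood, 36.8 CPM in arthritis blood and 34.5 CPM in the joint, and was lower in lung at 13.6 CPM (3.39-fold) and peritoneum at 4.24 CPM (10.9-fold). Smc4 did not pass the 2-fold rule anywhere, with 45.3, 40.5, 24.3, 40.1 and 39.2 CPM in the 5 conditions. Hmgb2 went from 1611 CPM in healthy and 1697 CPM in arthritis blood to 702 CPM in joint, 484 CPM in lung and 371 CPM in peritoneum.

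The tubulin genes differed in opposite directions. Tubb5 had 35.6 CPM in healthy blood, 17.5 CPM in arthritis blood, 13.1 CPM in the joint, 3.78 CPM in lung and 4.24 CPM in peritoneum. Tuba1b had 3.56 CPM in healthy blood (4 UMIs), 6.31 CPM in arthritis blood and 8.26 CPM in the joint, and was higher at 24.2 CPM in lung (6.81-fold) and 17.0 CPM in peritoneum (4.77-fold). Of the replication genes, Pcna passed the 2-fold rule in the joint with 178 UMIs (17.3 CPM) against 4 UMIs in healthy blood (3.56 CPM), and had 11.4 CPM in lung and 8.49 CPM in peritoneum. Mcm7 passed it in the other direction with 16 UMIs in the joint (1.55 CPM) against 8 in healthy blood (7.11 CPM). Free RNA was not measured in this library either. B-lineage markers, mostly Ighm, had UMIs in 29.3% of healthy blood and 13.9% of joint neutrophils. Levels of a few CPM are given as counts, and whether such UMIs came from the cells themselves was not tested. Mki67, the marker antigen of cycling cells, had 0 UMIs in healthy blood and 13 UMIs in lung, at least 3.69-fold higher against a floor of 3 UMIs per sample. H2afz was lower in peritoneum, at 160 CPM against 376 CPM.

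**Figure D5:**
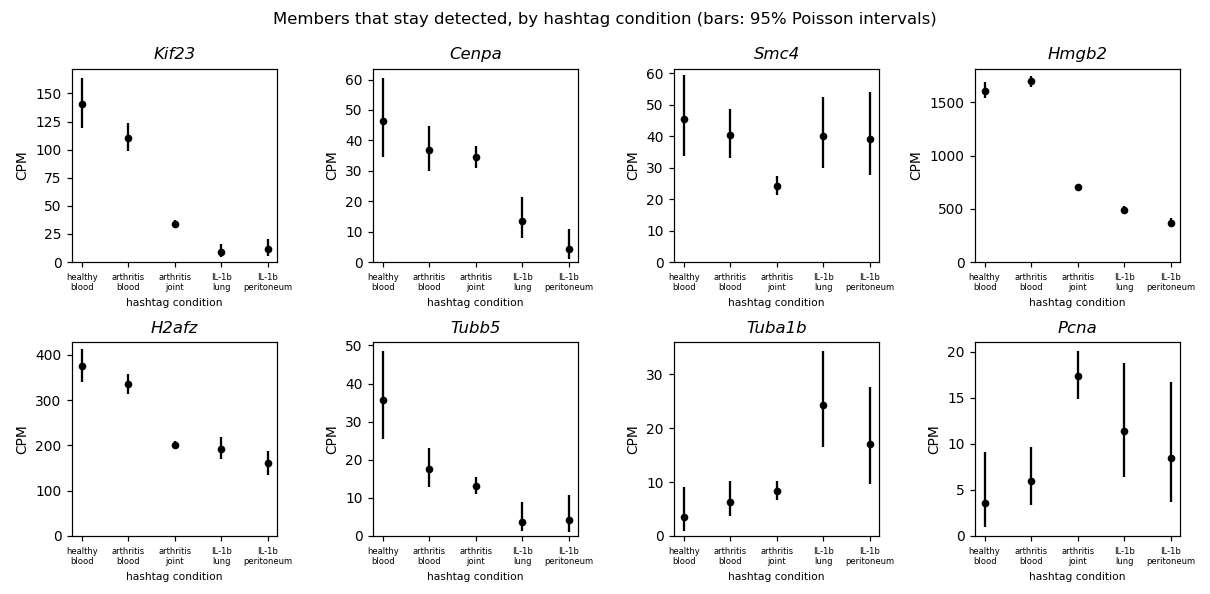
Level (CPM, linear axes from 0) of 8 members in the 5 hashtag conditions, 1 pooled sample each; bars are 95% Poisson intervals for counting error. Kif23 stands at 140 CPM in healthy blood and 9.08 CPM in lung, and Tuba1b at 3.56 and 24.2 CPM in the same pair.

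The inflammation table also held a cell cycle phase for each cell, which the authors assigned from the same counts by the relative levels of cell cycle genes. Members may have entered these calls, so their levels by phase are a description and lend the labels no support. Of the 4852 neutrophils, 4732 were labelled G1, 43 S and 77 G2M. None of the 120 labelled S or G2M had 3 of the 31 mitosis genes, and their median UMI counts were 651 (S) and 1274 (G2M) against 3454 in G1. The 31 mitosis genes had 27.5 CPM in cells labelled G2M (4 UMIs, Poisson interval 7.49 to 70.4) and 72.0 CPM in those labelled S (4 UMIs, 19.6 to 184), against 8.59 CPM in G1 (7.22 to 10.2). The 13 replication genes had 54.0 CPM in S (3 UMIs, 11.1 to 158) and 6.87 CPM in G2M (1 UMI), against 20.7 CPM in G1. Kif23, Cenpa and Smc4 together had 324 CPM in S (192 to 512) and 268 CPM in G2M (190.5 to 366), above the 111 CPM of G1 (106 to 117). Healthy blood supplied 17 of the 43 S and 22 of the 77 G2M cells, and within it these 3 genes had 537 CPM in S (232 to 1057), 554 CPM in G2M (309.9 to 913) and 219.8 CPM in G1 (193 to 249.6).

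Promoter sequences, which the choice of members did not use, were searched for known cell cycle motifs, as a description with no test. Many cell cycle promoters carry a CHR element with a CCAAT box upstream, through which the DREAM complex silences them in resting cells, while E2F sites are typical of replication genes. Promoter sequences of 45 members were found in the RefSeq table (GRCm38.p6), and the 250 bases upstream of each start were searched on both strands. The CHR letters TTTGAA or TTCGAA were present in 35.6% of the members against 17.5% of all 27025 promoters, CCAAT in 77.8% against 34.5%, and both in 33.3% against 6.23%. Among the 29 mitosis genes with a sequence, 44.8% had the CHR letters and 41.4% had both, compared with 16.7% and 16.7% of the 12 replication genes. The E2F letters TTTGGCGC, TTTCCCGC, TTTCGCGC or TTTGCCGC were in 25.0% of the replication and 6.9% of the mitosis promoters (1.92% of all), and the SP1-like GGGCGG in 71.1% of the members (33.0% of all). The 120 bases before the 5′ end of 5 genes are given because they span the range of the panel: Ube2c, Top2a and Birc5 were higher in bone marrow, Hmgb2 did not pass the test, and Kif23 was higher in blood and was added after its values were seen. Capitals mark CHR, CCAAT or SP1-like letters on either strand, the sequences read 5′ to 3′ on the strand of the gene, and a match is not a bound site.
Ube2c (chr2:164769809-164769928, plus strand): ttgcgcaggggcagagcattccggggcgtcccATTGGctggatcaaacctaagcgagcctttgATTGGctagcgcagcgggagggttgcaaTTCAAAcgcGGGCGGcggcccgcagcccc
Top2a (chr11:99024200-99024319, minus strand): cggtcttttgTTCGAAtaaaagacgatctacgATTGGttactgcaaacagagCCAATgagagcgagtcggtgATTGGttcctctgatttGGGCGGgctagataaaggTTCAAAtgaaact
Birc5 (chr11:117849117-117849236, plus strand): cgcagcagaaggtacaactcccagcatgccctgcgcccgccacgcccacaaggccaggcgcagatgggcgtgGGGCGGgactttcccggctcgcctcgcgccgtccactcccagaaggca
Hmgb2 (chr8:57511723-57511842, plus strand): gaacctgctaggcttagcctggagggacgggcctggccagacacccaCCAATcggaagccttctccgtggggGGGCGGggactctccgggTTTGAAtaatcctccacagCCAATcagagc
Kif23 (chr9:61946811-61946930, minus strand): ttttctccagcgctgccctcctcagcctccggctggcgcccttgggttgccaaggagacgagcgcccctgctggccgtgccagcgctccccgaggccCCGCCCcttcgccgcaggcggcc
In these windows Ube2c showed the CHR letters and 2 CCAAT boxes, and Top2a 2 and 3. Hmgb2 showed the CHR letters and 2 CCAAT boxes like them, and all 3 held the SP1-like letters. Birc5 and Kif23 held only the SP1-like letters there. In the searched 250 bases Kif23 also had a CCAAT box, at -7 from the start used for the search. That start lies inside the 5′ end of the gene, so the box falls past the printed bases.

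Cell cycle genes outside the panel were read in the same fit. Of 47 further replication genes 16 could be tested, and 13 were higher in bone marrow than in blood and 0 lower (15.2% and 15.8% of all genes). The smallest adjusted p values were those of Asf1b, a histone chaperone of the fork (log2 difference 5.74), Tipin (4.75) and Dut (2.89). Rfc2 and Slbp, at 63.1 and 76.7 CPM and 18.6 and 89.2 CPM in bone marrow, did not pass, whereas Dek did (1.90, SE 0.25, adjusted p = 0.00111). Of 48 further mitosis genes 20 could be tested, with 15 higher in bone marrow and 2 higher in blood, where the background was 15.2% and 15.8%. Cks1b (4.002) and Spc24 (3.41) were among the first group. Pttg1 (securin, which holds sister chromatids together until anaphase) was of the second, with 34.1 and 27.7 CPM in bone marrow, 122 and 208 CPM in spleen and 226 and 235 CPM in blood. The groups did not overlap, and its log2 difference was -2.59 (SE 0.24, adjusted p = 0.000284). Lmnb1, a nuclear lamin, was also higher in blood (-0.91, SE 0.24, adjusted p = 0.0193). Cks2 was in none of the run 1 tables, which sets no limit on its count there since it may not have been counted, and had 235, 363 and 325 CPM in bone marrow, spleen and blood of run 2.

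Of 24 G1 cyclins and brakes on the cycle, 17 could be tested, with 4 higher in bone marrow and 5 higher in blood. With a background of 15.2% and 15.8%, these counts are no result about the list. The Cdk inhibitor Cdkn1b had 36.3 and 54.3 CPM in bone marrow, 75.5 and 157 CPM in spleen and 115 and 203 CPM in blood (log2 difference -1.48, SE 0.22, adjusted p = 0.00171). The antiproliferative gene Btg1 was higher in blood by the same test (-1.95, SE 0.29, adjusted p = 0.00193), as were Btg2, Rbl2 and the cyclin gene Ccnd2. Cdkn2c, another Cdk inhibitor, was higher in bone marrow (2.45, SE 0.37, adjusted p = 0.00212), as was the cyclin gene Ccnd3 (0.95, SE 0.27, adjusted p = 0.0272), whereas Cdkn2d did not pass.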

How the data were processed

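Neutrophils sorted from 3 healthy tissues in 2 runs, and 1 hashtag library, had been profiled by droplet single-cell RNA-seq, and the authors deposited raw UMI counts per gene and cell made with Cell Ranger on mm10. Kept cells were summed per library (Python 3.11.15) and fitted with edgeR 4.0.16 in R 4.3.3 (TMM factors, filterByExpr, run as a block, FDR 0.05). The run numbers pair the samples, because the tissues of each experiment were taken from shared mice (study methods), and deviations correlated between tissues (Pearson r of 0.656 to 0.684 across 6588 genes). The samples are pools, so no p value measures the spread between mice. With the run as a block, the edgeR p values measure the spread between pools that is left once the run is taken out. The inflammation table also held phase scores as fractions per cell, which the authors made from the counts, and of these only the phase call was used. Healthy and inflammation libraries used different chemistries and were not compared. On simulated counts the fit was tested before use. No doublet caller was run, and limits modelled on the study's (genes per cell within the 1st to 99th percentile of the cells used here, 280 to 1842, and at most 5% mitochondrial UMIs) were an alternative. Named genes were the 3 highest in bone marrow of each list, members deviating from their list, the 10 highest and 5 lowest by level in cells without mitosis genes, and those past 2-fold in a condition. The members, lists and tests were chosen with earlier results of these data known.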

Additional observations from a re-analysis of the deposited data

How the results depend on the processing

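Across the 12 main results and 126 alternatives, 89 stayed near the main value, 12 values moved, 17 became weaker and 8 stronger. Counts of calls were labelled by the size of the count alone, and sums and shares by their SD over the runs. The labels of counts do not follow the direction of the calls. For single members, 638 of 807 kept their call and 169 lost it. Without the replicate block the calls were 19 between bone marrow and blood (27 with it), 0 between bone marrow and spleen (15), 0 between spleen and blood (7) and 0 of the 2 in cells without a mitosis gene. Over all deposited cells, which include other cell types, the calls of the first 3 comparisons were 0, 0 and 0, and the cause was not tested. With the limits on genes and mitochondrial share they were 24, 1 and 0, where the 1 was Kif23, higher in spleen. With these limits the replication and mitosis differences between bone marrow and blood were 115 and 421 CPM (284 and 964). The share difference was 1.69 percentage points (2.85) and the replication ratio 2.08% (1.54%). Cells with at least 3 mitosis genes had a median of 1845 genes in bone marrow of run 1, so the upper limit of 1842 removes many of them. DESeq2 called 11 between spleen and blood and 1 in cells without a mitosis gene, a cutoff of 1% for S100a8 and S100a9 called 12 between spleen and blood, and abundant members in cells also without a replication gene gave 1. The share difference was 4.13 at 2 genes, 0.727 at 5 genes, 6.46 without thinning and 4.45 at 1000 UMIs.

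Chosen after the data were seen, unlisted genes at 0 UMIs left 0 calls between spleen and blood, members listed in all 6 tables gave a mitosis difference of 688 CPM and a share difference of 1.85, and leaving out Kif23, Cenpa and Smc4 gave a share difference of 2.46. In cells without a mitosis gene, where mitosis members are 0 by construction, 9 instead of 18 member values passed the 2-fold rule in the hashtag conditions. Leaving out 1 library at a time gave 21 to 28, 3 to 19 and 0 to 17 calls in the 3 comparisons and 0 to 2, 0 to 4 and 0 to 1 in cells without a mitosis gene. The differences ranged from 237 to 332 CPM (replication), 883 to 1044 CPM (mitosis) and 2.68 to 3.01 percentage points (share). Where a tissue then had 1 library, it was assumed to vary like the others. With 2 pools a tissue, the test of spread used here cannot go below 0.0667. Levels near 1 to 3 UMIs, as for many members in blood, carry wide counting error.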
